A study of Mus musculus with 8 samples.

Results

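Microglia read extracellular nucleotides through purinergic receptors, and 7 genes of this system are described here: P2ry12, P2ry13, P2ry6, P2rx4, P2rx7, Entpd1 and Adora3. They were taken by gene symbol from the 51810 genes of the deposited count table, and all 7 had counts in each of the 8 libraries. RNA came from cells that CD11b magnetic beads had retained from brains of wild-type mice, after myelin removal on a Percoll gradient. The 4 groups were white matter at 21 months, grey matter at 21 months, white matter at 4 months and grey matter at 4 months, with 2 libraries in each. White matter was the corpus callosum; the region label of the grey matter samples also reads corpus callosum, and the groups follow the tissue label. The labels give no sex, no strain beyond wild type, and no statement of whether a group's 2 libraries stem from separate, pooled or the same animals. The p-values therefore measure the spread between these libraries, which may be technical. CD11b also marks neutrophils, monocytes and other macrophages, so the beads do not select microglia alone.

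ATP and ADP leak from damaged or active cells and act on 2 receptor families. P2Y receptors couple to G proteins, and P2X receptors are cation channels opened by ATP. Ectoenzymes on the cell surface then strip phosphates from the nucleotides, and the adenosine that results acts on its own receptors. P2ry12, the ADP receptor that steers microglial processes towards injury, is widely used as a marker of resting microglia and is known to decline when the cells become reactive.

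P2ry12 and P2ry13 are neighbours on mouse chromosome 3, and together with Entpd1 they were the members whose 21-month groups did not overlap, as described below. The stretches of 250 bases before their annotated starts are shown to set these genes side by side; they are RefSeq sequences of build GRCm38.p6, written 5′ to 3′ on the gene's strand. Capitals mark AGGAAG, a motif with the GGAA core that factors of the ETS family, among them the myeloid factor PU.1, are known to bind. For P2ry12 the stretch is chr3:59262986-59263235 on the minus strand, for P2ry13 it is chr3:59210883-59211132 on the minus strand, and for Entpd1, at the second of its starts in the table, it is chr19:40659520-40659769 on the plus strand.
P2ry12: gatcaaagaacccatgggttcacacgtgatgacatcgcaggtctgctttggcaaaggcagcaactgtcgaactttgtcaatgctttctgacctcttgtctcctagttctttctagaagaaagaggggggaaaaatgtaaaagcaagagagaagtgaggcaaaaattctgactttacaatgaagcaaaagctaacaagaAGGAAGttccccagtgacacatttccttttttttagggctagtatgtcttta
P2ry13: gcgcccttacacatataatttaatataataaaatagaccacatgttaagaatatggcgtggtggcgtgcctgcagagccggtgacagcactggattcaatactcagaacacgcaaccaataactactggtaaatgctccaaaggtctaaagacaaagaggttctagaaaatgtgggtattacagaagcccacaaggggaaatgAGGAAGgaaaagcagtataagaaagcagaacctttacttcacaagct
Entpd1: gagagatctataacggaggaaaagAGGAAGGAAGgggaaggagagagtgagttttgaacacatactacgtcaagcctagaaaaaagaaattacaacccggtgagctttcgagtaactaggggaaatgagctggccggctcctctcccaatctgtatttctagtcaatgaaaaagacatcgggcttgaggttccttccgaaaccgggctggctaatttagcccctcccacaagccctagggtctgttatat
The motif began 52 bases before the P2ry12 start and 47 bases before the P2ry13 start. At Entpd1 there were 2 overlapping matches, 226 and 222 bases before the start. Searched on both strands, the motif was present in 5 of the 8 stretches of the 6 genes found in the table, against 29.5% of 32851 promoter stretches of the same length. The other stretches with the motif were the second P2rx7 start, 130 bases before it, and Adora3, 29 bases before its start on the opposite strand. Both are members whose 21-month groups overlapped, so the motif does not set the 3 genes shown apart. The first Entpd1 start, P2rx4 and the first P2rx7 start had none, and P2ry6 was not matched. A match describes letters and was not tested as a binding site.

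Libraries held 3273258 to 6315782 estimated counts. The 10 microglia markers summed to 11399 to 17429 CPM (counts scaled to a common library size, with TMM factors) in 7 libraries and to 2923 CPM in library 1 of 4-month white matter. That library also held 58492 CPM of 8 oligodendrocyte markers, against 191 to 737 CPM in the others. The members' log2 fold changes in the main fits that rest on it are therefore given with and without it, some as ranges. DESeq2 counts and fits under other scalings that rest on it are given only with it. Neutrophil markers summed to 283 and 73.8 CPM in 21-month white matter, against 2037 and 1749 CPM in 21-month grey matter, and to 217 and 502 CPM in 4-month white matter, against 3993 and 1852 CPM in 4-month grey matter. Monocyte markers summed to 66.0 and 33.0 CPM in 21-month white matter, against 311 and 283 CPM in 21-month grey matter, and to 28.7 and 78.5 CPM in 4-month white matter, against 367 and 237 CPM in 4-month grey matter. Markers of border-associated macrophages summed to 33.3 and 69.8 CPM in 21-month white matter, against 164 and 123 CPM in 21-month grey matter, with 1 of 7 at 0 in library 1 of white matter, and to 12.4 and 98.6 CPM in 4-month white matter, against 345 and 197 CPM in 4-month grey matter. The neutrophil marker list had 1 gene at 0 in library 2 of 21-month white matter and 1 in library 1 of 4-month white matter; no monocyte marker was at 0 in any library. What part these cells have in the values below was not tested. In bulk RNA, fewer microglia in a library and less of a transcript per microglial cell cannot be told apart.

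The ADP receptors P2ry12 and P2ry13 and the ectoenzyme Entpd1 were each lower in both 21-month white matter libraries than in both 21-month grey matter libraries. P2ry12 stood at 983 and 1092 CPM in 21-month white matter, against 1465 and 1599 CPM in 21-month grey matter. P2ry13, a second ADP receptor that couples to the same class of inhibitory G proteins, stood at 602 and 807 CPM in 21-month white matter, against 857 and 974 CPM in 21-month grey matter. Entpd1 encodes CD39, the enzyme that removes phosphates from ATP and ADP and so takes away the ligand of both receptors. It stood at 445 and 442 CPM in 21-month white matter, against 591 and 598 CPM in 21-month grey matter. The 2 libraries of a group lay close together for Entpd1, but 2 values are a poor measure of spread. The fitted SE and adjusted p are given below.

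None of the 7 genes passed edgeR's quasi-likelihood test at a Benjamini-Hochberg adjusted p under 0.05 in this comparison, which called 232 of 14717 genes (1.58%). The log2 fold change of white over grey matter was -0.57 ± 0.17 (SE; 95% interval -0.94 to -0.20) for P2ry12, with an adjusted p of 0.159 by edgeR. For Entpd1 it was -0.43 ± 0.16 (interval -0.78 to -0.09; edgeR adjusted p = 0.289), and for P2ry13 -0.39 ± 0.18 (interval -0.80 to 0.02; edgeR adjusted p = 0.484). DESeq2 called P2ry12 at a log2 fold change of -0.58 ± 0.16 (adjusted p = 0.0217), and no other member. It called 305 of 29717 genes (1.03%). DESeq2 shares, here and below, are over all genes it gave a p-value. That set was not filtered on low counts and is larger than the one tested by edgeR. Over 13 alternative settings the P2ry12 log2 fold change ran between -0.71 and -0.49, with adjusted p between 0.0217 and 1.00. These 3 genes are all of the members whose 21-month groups did not overlap in CPM, each lower in white matter; 19.6% of all genes tested were lower in that way and 21.2% higher. An exact permutation test of 2 libraries against 2 cannot go below p = 0.333, so none is given for single genes.

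The other 4 members did not separate by tissue at 21 months. P2ry6, the receptor for UDP that is known to prompt phagocytosis in microglia, stood at 172 and 152 CPM in white matter, against 140 and 164 CPM in grey matter. P2rx7, the ATP-gated channel that opens at high ATP and feeds the NLRP3 inflammasome, stood at 203 and 185 CPM in white matter, against 199 and 188 CPM in grey matter. Adora3, an adenosine receptor coupled to inhibitory G proteins, stood at 47.5 and 43.7 CPM in white matter, against 43.8 and 45.5 CPM in grey matter. The ranges of the groups overlapped for all 3. Their log2 fold changes were 0.09 (interval -0.28 to 0.45) for P2ry6, -0.003 (interval -0.35 to 0.35) for P2rx7 and 0.02 (interval -0.40 to 0.45) for Adora3. The lower bounds of these intervals lay above the -0.43 fitted for Entpd1, but that of Adora3 lay below the -0.39 fitted for P2ry13. The interval of Entpd1 itself overlapped all 3, and the differences between members were not tested.

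P2rx4, the ATP-gated channel known for its induction in spinal microglia after nerve injury, was the one member with a fitted value well above 0 at 21 months. It stood at 171 and 105 CPM in white matter, against 109 and 86.8 CPM in grey matter. Library 1 of white matter was high and library 2 lay between the grey matter libraries. The log2 fold change was 0.48 ± 0.25 (SE; interval -0.08 to 1.05; edgeR adjusted p = 0.549). Leaving out 1 library at a time gave 0.07 to 0.79; the low value came without library 1 of white matter. Without the same library the P2ry13 value was -0.21, and without library 2 it was -0.61.

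**Figure D1:**
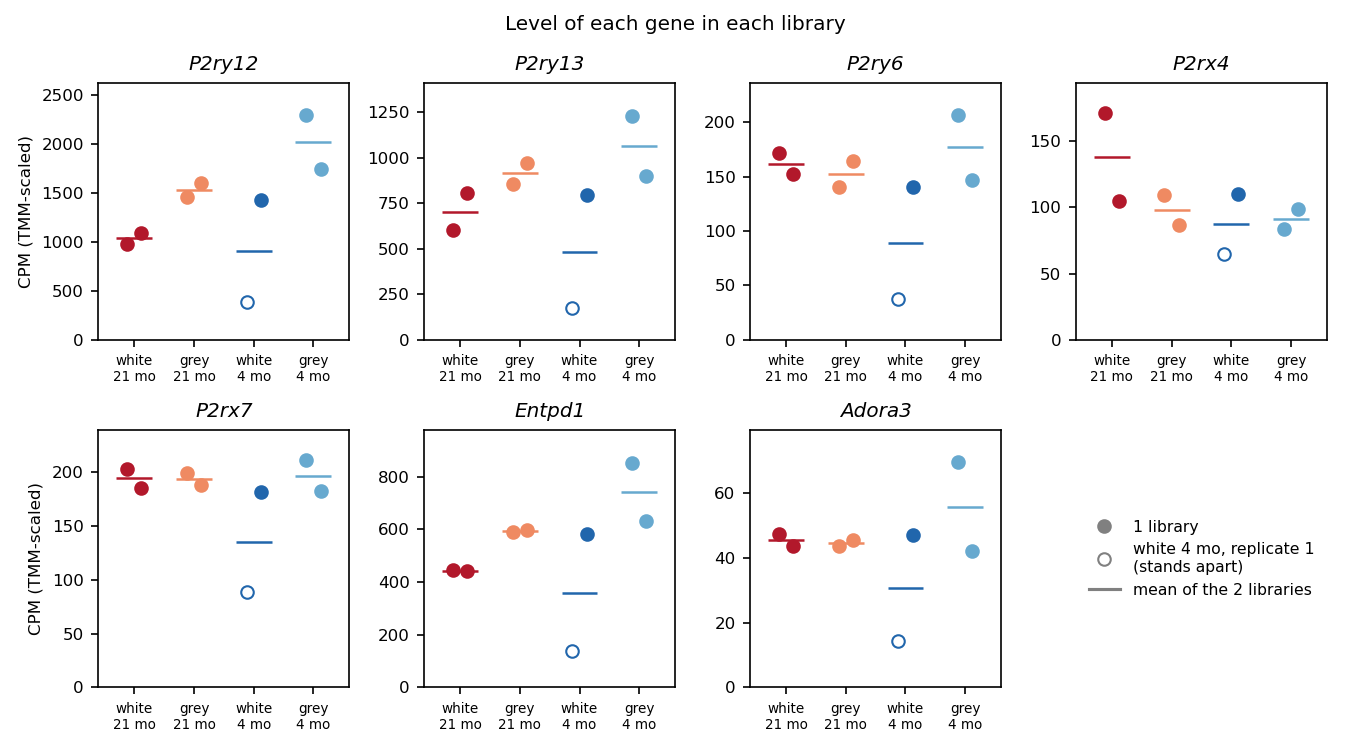
Level of each of the 7 genes in CPM (one panel per gene, each vertical axis starting at 0) in the 8 libraries, grouped as 21-month white, 21-month grey, 4-month white and 4-month grey matter; points are libraries, the open circle is library 1 of 4-month white matter, and bars mark group means. P2ry12 and Entpd1 in 21-month white matter sit below 21-month grey matter, and the open circle is the lowest point in every panel.

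At 4 months every comparison of white with grey matter rested on library 1 of white matter. P2ry12 stood at 388 and 1429 CPM in 4-month white matter, against 2297 and 1751 CPM in 4-month grey matter. P2ry13 stood at 173 and 795 CPM in white matter, against 1233 and 899 CPM in grey matter. Entpd1 stood at 137 and 582 CPM in white matter, against 853 and 631 CPM in grey matter. In all 3 the white matter libraries were lower than both grey matter libraries, but they differed from each other by more than the second of them differed from grey matter.

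P2ry6 followed the same order, at 37.4 and 140 CPM in 4-month white matter, against 207 and 147 CPM in 4-month grey matter. P2rx7 stood at 88.7 and 181 CPM in white matter, against 212 and 183 CPM in grey matter. P2rx4 stood at 64.7 and 110 CPM in white matter, against 83.4 and 98.9 CPM in grey matter, and its groups overlapped. Adora3, at 14.2 and 47.2 CPM in white matter against 69.6 and 42.2 CPM in grey matter, overlapped as well. So 5 of the 7 members were lower in white matter without overlap, where 15.4% of all genes tested were. Absence of overlap means that library 2 of white matter, too, lay below both grey matter libraries, by less than 2 CPM for P2rx7. The microglia marker sum of library 2 was 11963 CPM, against 17429 and 14510 CPM in 4-month grey matter. Of the 10 microglia markers, 0 had a fitted log2 fold change above 0 at 4 months, as did 0 of the 7 members.

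None of the 7 was called at 4 months, where edgeR called 0 of 14863 genes (0%), with 640 genes at an unadjusted p under 0.05, and DESeq2 called 457 genes (1.55%) and 0 members. The log2 fold changes were -1.15 ± 0.99 (SE) for P2ry12, -1.13 ± 0.99 for P2ry13, -1.04 ± 0.94 for Entpd1 and -0.98 ± 0.79 for P2ry6. Without library 1 of white matter they came to -0.48 ± 0.56 for P2ry12, -0.40 ± 0.52 for P2ry13, -0.32 ± 0.50 for Entpd1 and -0.31 ± 0.44 for P2ry6. P2rx7 stood at -0.55 with it and -0.10 without it, Adora3 at -0.85 with it and -0.22 without it, and P2rx4 at -0.07 with it and 0.29 without it. That fit has 1 white matter library, which is taken to vary as the grey matter libraries do. Its intervals were wide: for P2ry12 the log2 fold change could lie between -1.77 and 0.82.

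With age, the members showed no called change in either tissue. In white matter edgeR called 0 of 14623 genes (0%), with 415 at an unadjusted p under 0.05, and DESeq2 called 379 genes (1.30%) and 0 members. All 7 log2 fold changes of 21 over 4 months lay above 0 there, from 0.19 ± 0.87 for P2ry12 to 0.86 ± 0.75 for P2ry6. All 10 microglia markers lay above 0 as well, where 50.6% of all genes tested did. Without library 1 of 4-month white matter 4 of the 7 members lay below 0. P2ry12 came to -0.48 ± 0.30 (SE; interval -1.11 to 0.14; edgeR adjusted p = 0.802), Entpd1 to -0.41 ± 0.27 (interval -0.99 to 0.16; edgeR adjusted p = 0.831) and P2ry13 to -0.20 ± 0.30. Adora3 came to -0.07, P2rx7 to 0.08, P2ry6 to 0.19 and P2rx4 to 0.31. That fit called 72 of 15680 genes (0.459%), and no member was among them.

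The direction for P2ry12, P2ry13, Entpd1 and Adora3 in white matter thus turned on that library. Against library 2 of 4-month white matter, both 21-month white matter libraries were lower for P2ry12 (983 and 1092 CPM, against 1429 CPM) and for Entpd1 (445 and 442 CPM, against 582 CPM). P2ry13, at 602 and 807 CPM against 795 CPM, lay on both sides. P2ry6 and P2rx7 were the 2 members higher at 21 months without overlap, where 19.8% of all genes tested were, and library 2 of 4-month white matter lay just below them, at 140 CPM for P2ry6 and 181 CPM for P2rx7.

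In grey matter the aging comparison did not involve that library. P2ry12 stood at 1465 and 1599 CPM at 21 months, against 2297 and 1751 CPM at 4 months. Entpd1 stood at 591 and 598 CPM at 21 months, against 853 and 631 CPM at 4 months. These were the 2 members lower at 21 months without overlap, where 17.7% of all genes tested were and 16.9% were higher. The log2 fold changes were -0.38 ± 0.27 (SE) for P2ry12 and -0.30 ± 0.25 for Entpd1. Values for P2ry13, P2ry6 and Adora3 were -0.20, -0.20 and -0.30, and P2rx4 and P2rx7 came to 0.12 and -0.01. No member was called; edgeR called 0 of 15255 genes (0%), with 419 at an unadjusted p under 0.05, and DESeq2 called 1 (0.00334%). For 6 of the 7 members library 1 of 4-month grey matter was the highest of the grey matter libraries; the exception was P2rx4. That library also held the highest microglia marker sum of the 8.

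The difference between the tissues in the change with age was fitted over all 8 libraries. All 7 members lay above 0, between 0.55 for P2rx7 and 1.08 for P2ry6, with SEs of 0.58 to 0.98. All 10 microglia markers did too, against 49.8% of all genes tested. No member was called (0 of 16237 genes, 0%, with 455 at an unadjusted p under 0.05 by edgeR, and 39, or 0.119%, by DESeq2). Without library 1 of 4-month white matter the value for P2ry12 came to -0.08 ± 0.38 (SE), for Entpd1 to -0.10 ± 0.36 and for P2ry13 to 0.02 ± 0.41. The other 4 stayed above 0, at 0.41 ± 0.37 for P2ry6, 0.25 ± 0.42 for Adora3, 0.21 ± 0.45 for P2rx4 and 0.11 ± 0.32 for P2rx7, and none was called. The data do not show that aging moved any member differently in white than in grey matter.

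**Figure D2:**
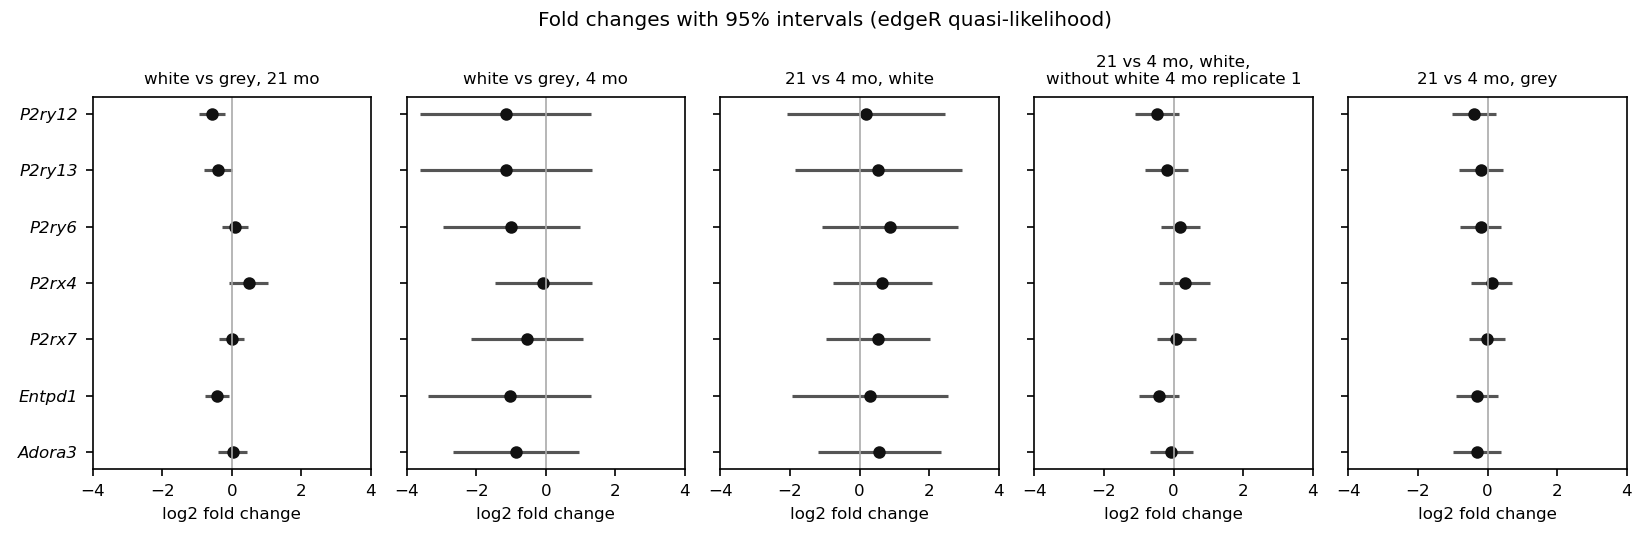
Log2 fold change (horizontal axis) of each member in the comparisons of white with grey matter and of 21 with 4 months, with 95% intervals as lines. At 21 months the interval for P2ry12 runs from -0.94 to -0.20 and that for Entpd1 from -0.78 to -0.09, while the intervals of comparisons that hold library 1 of 4-month white matter span 0 widely.

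Because library 1 of 4-month white matter held less microglial RNA, each member was also expressed per 10000 counts of 25 microglia and myeloid genes of the same library, a list that holds none of the 7. For P2ry12, 21-month libraries of white matter had 311 and 367 on this scale and 4-month libraries 601 and 579. In grey matter the 21-month libraries had 579 and 527, and the 4-month libraries 600 and 611. Only the 21-month white matter libraries stood apart. The other 6, library 1 of 4-month white matter included, lay between 527 and 611. How many of all genes separate in this way on this scale was not counted, which holds for Entpd1 below as well. Under this scaling the median log2 fold change of all genes at 21 months was -0.14, white over grey matter. By mean, 21-month white matter was lowest (339 ± 40.0, SD, n = 2), followed by 21-month grey matter (553 ± 36.8), 4-month white matter (590 ± 15.3) and 4-month grey matter (606 ± 7.86). The 2 groups of 4 months overlapped, and 21-month grey matter reached up to the lower end of the 4-month white matter range at 579.

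Entpd1 gave the same picture. In white matter it had 141 and 149 per 10000 at 21 months, against 212 and 236 at 4 months. In grey matter it had 234 and 197 at 21 months, against 223 and 220 at 4 months. The last 3 groups overlapped, and 21-month white matter lay below all of them. For P2ry13 the separation was less clear, with 190 and 271 in white matter at 21 months, against 268 and 322 at 4 months, and 339 and 321 in grey matter at 21 months, against 322 and 314 at 4 months. Here library 2 of 21-month white matter lay above library 1 of 4-month white matter.

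P2ry6 kept the narrowest range on this scale. White matter gave 54.4 and 51.1 per 10000 at 21 months, against 57.9 and 56.9 at 4 months, and grey matter 55.4 and 54.0 at 21 months, against 53.9 and 51.3 at 4 months. In CPM its 8 values spanned 37.4 to 207. Both 4-month white matter libraries lay slightly above the other 6. Adora3, with 39 to 399 counts per library, stood at 21.9 and 19.1 per 10000 in 4-month white matter and at 14.7 to 18.2 in the other 6 libraries. Over the 7 libraries without library 1 of 4-month white matter, the highest value was 1.11 times the lowest for P2ry6, 1.30 times for Adora3, 1.42 times for P2rx7, 1.97 times for P2ry12 and 2.49 times for P2rx4.

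The P2X channels behaved differently in the library rich in oligodendrocyte transcripts. For P2rx4, white matter gave 54.1 and 35.2 per 10000 at 21 months, against 100.1 and 44.5 at 4 months, and grey matter 43.2 and 28.6 at 21 months, against 21.8 and 34.5 at 4 months. For P2rx7, white matter gave 64.3 and 62.4 at 21 months, against 137 and 73.5 at 4 months, and grey matter 78.7 and 62.0 at 21 months, against 55.3 and 63.7 at 4 months. Library 1 of 4-month white matter was the highest of the 8 for both. Its ratio to library 2 of the same group was 2.25 for P2rx4 and 1.87 for P2rx7, against 0.83 to 1.15 for the other 5 members. The counts behind these values were 178 for P2rx4 and 244 for P2rx7. In CPM the same library lay below its partner for all 7, at 0.22 to 0.59 times. The part of oligodendrocyte RNA in the 2 channel genes was not tested.

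**Figure D3:**
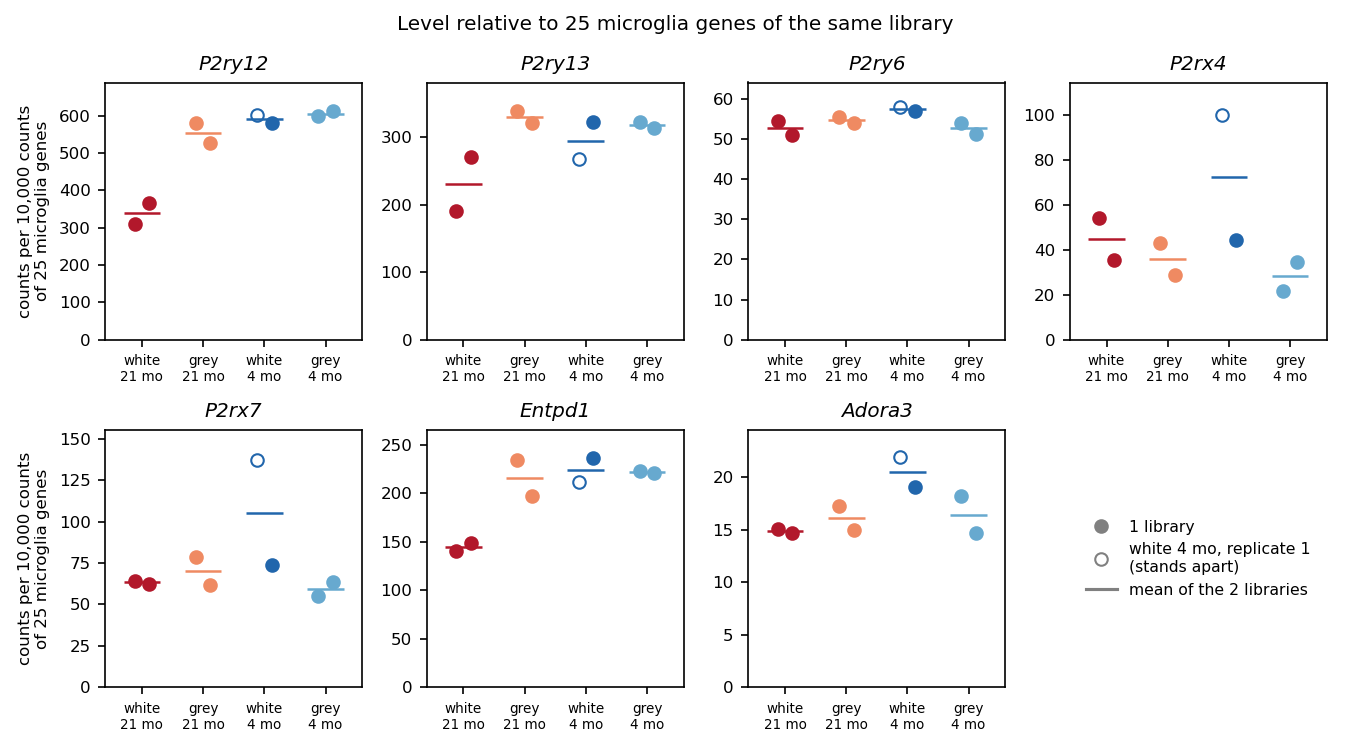
Level of each of the 7 genes per 10000 counts of 25 microglia and myeloid genes of the same library (one panel per gene, each vertical axis starting at 0), with the groups and symbols of the plot in CPM. P2ry12 and Entpd1 are low in 21-month white matter alone, P2ry6 lies between 51.1 and 57.9 throughout, and the open circle stands above all other points for P2rx4 and P2rx7.

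Fitted with library sizes set by these 25 genes, white over grey matter at 21 months gave a log2 fold change of -0.71 ± 0.18 for P2ry12 (SE; edgeR adjusted p = 0.0910; 1.56% of genes called), -0.57 ± 0.19 for Entpd1 (edgeR adjusted p = 0.222) and -0.52 ± 0.20 for P2ry13 (edgeR adjusted p = 0.369). The median of all genes moved to -0.14 under this scaling, against 0.01 under the usual one, so about 0.14 of each value is a shift common to all genes. The lysosomal protease Ctss took 13.2% and 13.04% of the 25-gene sum in 21-month white matter, against 8.85% and 8.56% in 21-month grey matter. With the 10 microglia markers in place of the 25 genes, a choice made after seeing the data, the P2ry12 value was -0.49 ± 0.19 (edgeR adjusted p = 0.356; 1.70% of genes called) and the Entpd1 value -0.36 ± 0.20 (edgeR adjusted p = 0.649). P2ry12 then had 816 and 919 per 10000 marker counts in white matter at 21 months, against 1329 and 1194 at 4 months, and 1285 and 1151 in grey matter at 21 months, against 1318 and 1207 at 4 months. On this scale too, 21-month white matter lay below the other 6 libraries, and how many of all genes do so was not counted. Set against each of the 10 markers singly, P2ry12 was lower in both 21-month white matter libraries than in both 21-month grey matter libraries for 8 of 10, Entpd1 for 6 and P2ry13 for 4. The exceptions for P2ry12 were Siglech and Sall1. Against all 6 other libraries, fewer ratios held: 21-month white matter was lowest for 6 of 10 markers for P2ry12, 3 for Entpd1 and 1 for P2ry13. P2ry6 was higher in both 21-month white matter libraries for 7 of 10 markers, P2rx4 and Adora3 for 6 each and P2rx7 for 5.

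The annotation bears on how far some counts belong to one gene. In GENCODE M21, P2ry12 and P2ry13 lie within Med12l on the opposite strand, and exons of P2ry12 overlap exons of Med12l. Whether the counting used strand is not stated in the labels, so reads of both genes could have been shared. Med12l had 41.4 and 46.7 CPM in white matter at 21 months, against 12.4 and 52.9 CPM at 4 months, and 57.2 and 69.5 CPM in grey matter at 21 months, against 40.8 and 68.6 CPM at 4 months. Its counts ran from 34 to 375 per library, and those of P2ry12 from 1069 to 13168. Adora3 shares exons with Tmigd3 on the same strand, which had 0 to 38 counts per library; how many reads from the shared exons went to either gene is not known.

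The wider pathway was represented by 71 genes in 9 lists, of which 53 were tested at 21 months. There, 1 was higher and 1 lower in white matter, where 0.985% of all genes tested were higher and 0.591% lower, and the median log2 fold change was 0.03, against 0.01 over all genes tested. The gene that was higher was Ctsb, a lysosomal protease listed with P2X4, which stood at 2916 and 2378 CPM in white matter, against 1219 and 1473 CPM in grey matter (log2 fold change 0.97 ± 0.19, SE; edgeR adjusted p = 0.0328). The gene that was lower was Slc28a2, a sodium-driven nucleoside carrier, at 1.18 and 1.74 CPM in white matter, against 8.72 and 9.21 CPM in grey matter (log2 fold change -2.61 ± 0.51; edgeR adjusted p = 0.0346). It rests on 5 and 7 counts in white matter, and the neutrophil and monocyte markers given above were lower in the same libraries; their part was not tested. The other 3 comparisons of groups and the difference between tissues called none of the 52 to 57 pathway genes they tested.

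Of the other nucleotide receptors, 2 of 5 P2Y genes and 1 of 5 P2X genes had enough counts to be tested at 21 months, and none was called. P2ry14, a receptor for UDP-glucose, stood at 10.6 and 10.9 CPM in 21-month white matter, against 15.4 and 13.1 CPM in 21-month grey matter. P2ry2, a receptor for ATP and UTP, stood at 10.6 and 3.97 CPM in white matter, against 3.57 and 4.47 CPM in grey matter. P2rx1, an ATP-gated channel, stood at 0.24 and 2.98 CPM in white matter, against 4.95 and 4.19 CPM in grey matter. P2rx5, another such channel, reached at most 1.76 CPM in any library. These levels depend on transcript length and are not ranked against those of the 7 genes.

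Adenosine receptors other than Adora3 had few counts, with 1 exception. Adora1 stood at 169 CPM, or 464 counts, in library 1 of 4-month white matter and at 0.59 to 4.19 CPM in the other 7. Adora2a, which couples to stimulatory G proteins, stood at 3.31 and 1.24 CPM in 21-month white matter, against 4.16 and 3.07 CPM in 21-month grey matter. Neither was called. The ectoenzyme Enpp1 had the same outlying library, with 68.0 CPM there and 11.4 to 18.6 CPM in the others. Acpp, a phosphatase that turns AMP into adenosine, stood at 1.89 and 1.99 CPM in 21-month white matter, against 14.5 and 5.86 CPM in 21-month grey matter (log2 fold change -2.41 ± 0.56, SE; edgeR adjusted p = 0.0727).

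None of 19 G proteins and effectors was called at 21 months, and their median log2 fold change was -0.01, with 9 of 19 above 0. Gnai2, the inhibitory G protein subunit through which P2ry12 signals, stood at 497 and 468 CPM in white matter, against 464 and 501 CPM in grey matter. Rasgrp3, an exchange factor for small GTPases, stood at 436 and 378 CPM in white matter, against 333 and 351 CPM in grey matter. None of 9 inflammasome genes was called. Nlrp3 itself, the sensor of that complex and named after its values were seen, stood at 507 and 263 CPM in white matter, against 223 and 202 CPM in grey matter, without overlap (log2 fold change 0.85 ± 0.31; edgeR adjusted p = 0.365). Of the same list, Txnip, a thioredoxin-binding protein that can activate NLRP3, stood at 521 and 472 CPM in white matter, against 812 and 768 CPM in grey matter (log2 fold change -0.68 ± 0.16; edgeR adjusted p = 0.0786). Il1b, the cytokine released after P2X7 opens, stood at 489 and 359 CPM in white matter, against 365 and 218 CPM in grey matter, so the groups overlapped. None of 5 tested release channels was called; Lrrc8a, a subunit of volume-regulated anion channels, and Calhm2, a channel of the calcium homeostasis modulator family, had log2 fold changes of 0.35 and 0.02.

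The members' profiles were compared by the root mean square difference of log2 CPM, each gene centred on its own mean, over the 7 libraries without library 1 of 4-month white matter. Points within a library share its depth and cell content, so these distances describe and are not tested. P2ry12 and Entpd1 differed by 0.10, Entpd1 and P2ry13 by 0.14, and P2ry12 and P2ry13 by 0.16. P2ry6 and Adora3 differed by 0.11, P2ry6 and P2rx7 by 0.14 and P2rx7 and Adora3 by 0.18. P2rx4 was farthest from P2ry12, at 0.66. With the eighth library added, P2ry12, P2ry13 and Entpd1 still lay within 0.20 of one another and P2ry6 and Adora3 differed by 0.16. P2ry6 and P2rx7 then differed by 0.34, more than P2ry6 and Entpd1 at 0.25, and P2rx7 and P2rx4 by 0.32, so the closeness of P2rx7 to P2ry6 held only without that library. For scale, the median distance from P2ry12 to the 5725 candidate genes was 0.44.

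Among those candidates, which had a mean of at least 20 CPM, Ifitm10 was nearest to P2ry12 (0.07), followed by Trmt13 and Cyth1 (0.09 each). Cyth1 (0.05), Mta2 (0.05) and Gpr34 (0.07) were nearest to Entpd1. With the eighth library added, Gpr34 lay at 0.10 from Entpd1, Mta2 at 0.54 and Cyth1 at 1.61. Matk, Zcchc9 and Zfp90 were nearest to P2ry13 (0.08 to 0.09), and Eaf1, Blmh and Prpf19 to P2ry6 (0.03 to 0.05). Snx8, Etv3 and Zc3h12c were nearest to P2rx4 (0.09 to 0.11), Pias1, Fip1l1 and Mfap1a to P2rx7 (0.05 each), and Chtf8, Mrfap1 and Ube2n to Adora3 (0.03 to 0.04). Over all 8 libraries most of these neighbours moved away: Pias1 lay at 0.11 from P2rx7 and Ifitm10 at 0.20 from P2ry12, while Prpf19 lay at 1.09 from P2ry6, Mrfap1 at 1.01 from Adora3 and Zcchc9 at 0.94 from P2ry13. P2rx7 varied least, with an SD of 0.09 on the log2 scale over the 7 libraries, and 0.733% of the candidates varied less; P2ry12 varied most of the 7, with 0.41.

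**Figure D4:**
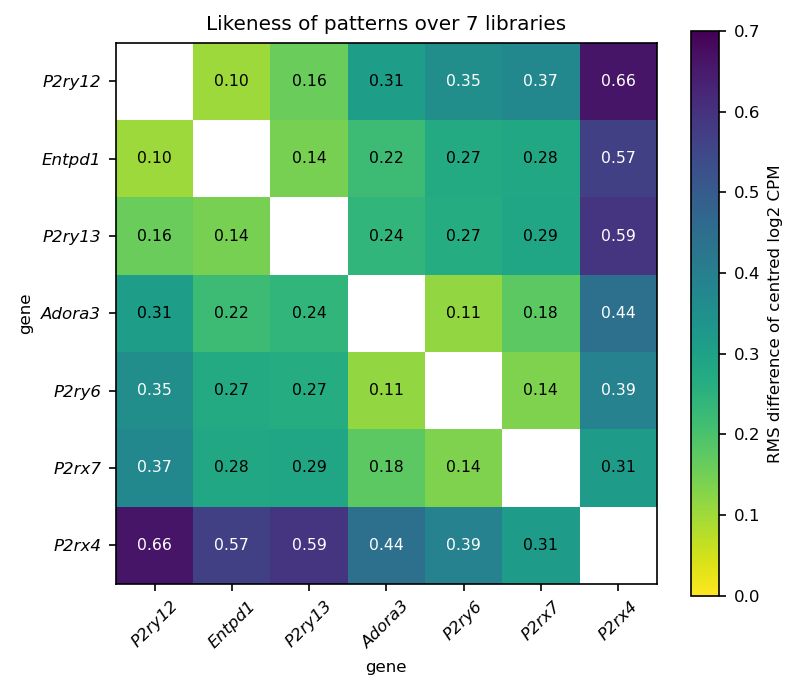
Root mean square difference of centred log2 CPM between each pair of members over the 7 libraries without library 1 of 4-month white matter; darker cells mean larger differences, in log2 units. P2ry12, P2ry13 and Entpd1 lie within 0.16 of one another, and P2rx4 differs from P2ry12 by 0.66.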

How the data were processed

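RNA from CD11b bead-isolated cells was sequenced on an Ion Proton instrument, per the labels' protocols. The values used are estimated counts per gene as the authors deposited them; Partek and DESeq2 are named in the submitters' processing notes, while aligner, genome build and strand use are not named there. Estimated counts were rounded to whole numbers, which moved no member by more than 0.463 counts. Each comparison of 2 groups was fitted on its own 4 libraries with edgeR 4.0.16 in R 4.3.3 (filterByExpr, TMM scaling, robust quasi-likelihood test, Benjamini-Hochberg adjustment over all genes tested, threshold 0.05), and the difference between tissues in the change with age on all 8. CPM values use TMM factors of all 8 libraries; intervals cover 95%. Log2 distances used a prior count of 2. DESeq2 1.42.0, limma 3.58.1, other scalings, no filter, a replicate block, other sets of libraries and leaving out each library were alternatives. The other deposited tables were not used. The script was tested on simulated data. The 7 genes and the lists were chosen with earlier results of these data known. Named genes were the 7, the called pathway genes, otherwise the 2 highest of each list, and the 3 genes nearest each member. For the list of genes tied to P2X4 and for the nucleoside uptake list only the called gene is named.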

Additional observations from a re-analysis of the deposited data

How the results depend on the processing

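No member was called in 4 of the 5 comparisons under any alternative that kept all libraries, and at 21 months DESeq2 alone called 1, P2ry12. Leaving out each library gave 0 to 0 members called at 21 months and for aging in grey matter, 0 to 5 for tissue at 4 months, 0 to 7 for aging in white matter and 0 to 6 for the difference between tissues in the change with age; the highest counts all came without library 2 of 4-month white matter, which leaves library 1 alone in its group. Of 441 member values, 367 kept direction and side of the threshold and 55 changed sign. The rest newly passed the threshold, and all but P2ry12 by DESeq2 at 21 months did so in fits with a lone library. Scaling to the 25 microglia genes, which moved the median of all genes by -0.14 at 21 months, 1.58 at 4 months, -1.47 and 0.23 for aging in white and grey matter and -1.67 for the difference of the 2, turned P2ry6 (-0.053) and Adora3 (-0.12) at 21 months; P2ry6 (0.12), P2rx4 (1.36), P2rx7 (0.82), Entpd1 (0.016) and Adora3 (0.32) at 4 months; P2ry12 (-0.80), P2ry13 (-0.35), P2ry6 (-0.12), P2rx4 (-0.69), P2rx7 (-0.73), Entpd1 (-0.63) and Adora3 (-0.46) for aging in white matter; P2ry13 (0.054), P2ry6 (0.056) and P2rx7 (0.24) for aging in grey matter; and P2ry12 (-0.67), P2ry13 (-0.41), P2ry6 (-0.18), P2rx4 (-1.04), P2rx7 (-0.97), Entpd1 (-0.59) and Adora3 (-0.44) for the difference. P2rx7, fitted near 0 at 21 months and for aging in grey matter, turned at 21 months with no filter (0.016), all 8 libraries (0.0064), all but the doubtful one (0.0046) and 10-marker scaling (0.068), and in grey matter aging with DESeq2-type size factors (0.0020). The 7-library fit turned P2rx4 at 4 months (0.28) and, for aging in white matter, P2ry12 (-0.48), P2ry13 (-0.19), Entpd1 (-0.41) and Adora3 (-0.060). The cause was not tested.

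Values that turned when 1 library was left out ranged, for aging in white matter, over -0.48 to 1.44 (P2ry12), -0.20 to 2.05 (P2ry13), -0.41 to 1.72 (Entpd1) and -0.067 to 1.71 (Adora3); for aging in grey matter over -0.39 to 0.012 (P2ry13), -0.41 to 0.032 (P2ry6), -0.069 to 0.28 (P2rx4), -0.089 to 0.071 (P2rx7) and -0.60 to 0.065 (Adora3); at 21 months over -0.028 to 0.19 (P2ry6), -0.087 to 0.063 (P2rx7) and -0.054 to 0.084 (Adora3); at 4 months over -0.57 to 0.29 (P2rx4); and for the difference between tissues over -0.083 to 1.85 (P2ry12) and -0.096 to 2.05 (Entpd1). Genes called at 21 months numbered 232, against 783 with no filter, 146 with limma, 522 with a replicate block, 0 with all 8 libraries and 19 with 7, and 84 to 457 leaving 1 out. Where the main count was 0, no filter called 715 at 4 months, 9 and 39 for aging in white and grey matter and 470 for the difference; DESeq2 called 457, 379, 1 and 39, and leaving 1 out reached 2846, 6204, 2216 and 2422. Same-numbered libraries correlated in their deviations at 0.06, 0.42, -0.03 and -0.10 in the 4 comparisons of groups, so libraries with the same number deviated together at 4 months and not in the other 3. The labels do not say that a number marks a shared animal or day, so the numbers were not taken as pairs; the replicate block called 0 members. With 2 libraries a group, a lone library is assumed to vary like the others.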

Other observations

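Microglia marker genes other than the 7 offer a scale for the P2ry12 values. None of the 10 markers was called in white against grey matter at 21 months; 2 of 10 had log2 fold changes above 0, and the median was -0.25. As shares of the 25-gene sum, Sall1, a transcription factor of microglial identity, took 1.65% and 1.83% in 21-month white matter, against 2.86% and 2.87% in 21-month grey matter. Tmem119, a surface marker, took 2.36% and 2.84% in 21-month white matter, against 3.71% and 3.78% in 21-month grey matter, and Siglech, a lectin, took 0.84% and 1.02%, against 1.58% and 1.46%. These 3 genes were chosen after their values were seen. Each was lower in both white matter libraries, as P2ry12 was.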
